A study of Rattus norvegicus with 4 samples.

Results

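The solute carriers and ion pumps described here are the genes whose proteins move small molecules and ions across membranes. The members were chosen by symbol, as all probe sets other than controls that name a single gene beginning with Slc, Atp1, Atp2 or Clcn. This gave 63 probe sets of 35 genes, out of 1263 probe sets other than controls on the array. Of these, 1137 named a single gene, 720 genes in all. Total RNA from rat samples with the source label brain, adrenal medulla was hybridised to 4 arrays. They were an undigested and a digested sample at day 1 and an undigested and a digested sample at day 7 of a time course, with 1 array for each group. What was digested, and the age and strain of the animals, are not stated in the labels.

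Carriers of the SLC families use ion gradients or exchange to move transmitters, amino acids, sugars and ions, and the P-type pumps spend ATP to build those gradients. In neurons and in chromaffin cells, the catecholamine-secreting cells of the adrenal medulla, vesicular carriers load transmitter into storage vesicles and plasma membrane carriers take it back up. The sodium-potassium pump sets the gradients on which most of this uptake depends. Calcium pumps and sodium-calcium exchangers clear the calcium that triggers secretion, and CLC proteins pass chloride across the plasma membrane or exchange it for protons in endosomes and lysosomes.

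Signals are linear intensities scaled to a common median on each array, and 4 values in a row are always those of undigested day 1, digested day 1, undigested day 7 and digested day 7. The arrays carry 8 control probe sets for yeast and mouse transcripts, and their scaled signals ran from 10.8 to 228, with a median of 85.1. A probe set was analysed when its mean over the arrays, on the log2 scale, reached a signal of 229, the midpoint of the 1263. Of the 63 members, 26 (41.3%) of 18 genes did so, among 632 analysed in all. Signals under 51.8 were set to that value, the floor, for differences. Every analysed member lay above the floor on the 4 arrays, and 21 of the 26 were above the highest yeast or mouse control on each of them. On the digested day 7 array the hybridisation controls were 2.55-fold lower than the mean of the other arrays, as a median over 9 probe sets. The undigested day 7 array had a 3′ to 5′ ratio of beta-actin of 2.66, against 1.35 to 1.48 on the other arrays. The part of either in the differences below was not tested.

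The labelled tissue was checked against lists of cell type markers, of which the chromaffin cell and astrocyte lists hold some of the carriers. Of the chromaffin cell list, 6 of 10 genes had a named probe set, and 5 were analysed. Their summed signal over 9 probe sets was 280858, 304156, 386066 and 252224, nearly all of it from Th, the gene of tyrosine hydroxylase, and Ddc, which makes dopamine and serotonin. Between the days in undigested samples, 3 of its 6 analysed probe sets were at least 2-fold higher at day 7 and 0 lower, with a median of 1.003. Of all analysed probe sets, 7.28% were higher and 6.01% lower. In digested samples 0 of the 6 were higher and 1, of Npy, lower, against 3.32% and 4.75% of all. With digestion at day 7, 0 of the 6 were higher and 2 lower (median -0.57), against 6.96% and 4.43% of all. The neuron list had 7 of 9 genes measured, with summed signals of 278856, 304842, 197811 and 183358, most of it from Snap25, Nefl and Nefm. In undigested samples 2 of its 12 analysed probe sets were at least 2-fold lower at day 7 and 0 higher, with a median of -0.25, while Syn1 read 1024 at day 1 and 1581 at day 7. In digested samples 2 of the 12 were lower and 0 higher (median -0.60), and 0 passed 2-fold with digestion at day 7 (median -0.09). The astrocyte list, with 4 of 6 genes measured, summed to 11581, 11985, 5707 and 6867, most of it from Glul. This sum was lower in both day 7 samples, as were the analysed probe sets of Glul. The other analysed probe set, of Slc1a3, gave day differences of -0.11 in undigested and 0.23 in digested samples. Those of Slc1a2 and S100b were too dim to analyse, so the lower sum is that of Glul and not of the list. With digestion at day 7, 1 of the 4 analysed probe sets of the list, of Glul, was higher and 0 lower (median 0.37). The oligodendrocyte and Schwann cell list, with 4 of 7 measured, stood at 3077, 3127, 4266 and 2956. Of its 3 analysed probe sets, 0 passed 2-fold with digestion at day 7 (median -0.65). For adrenal cortex no gene of the list of 6 was among the named probe sets, so the presence of cortical cells could not be judged. The single macrophage probe set (Itgam) and the single fibroblast probe set (Vim) were under 228 on all arrays. The part of any of these cells in the differences below was not tested. In tissue RNA, fewer cells of a type and less RNA per cell cannot be told apart.

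**Figure D1:**
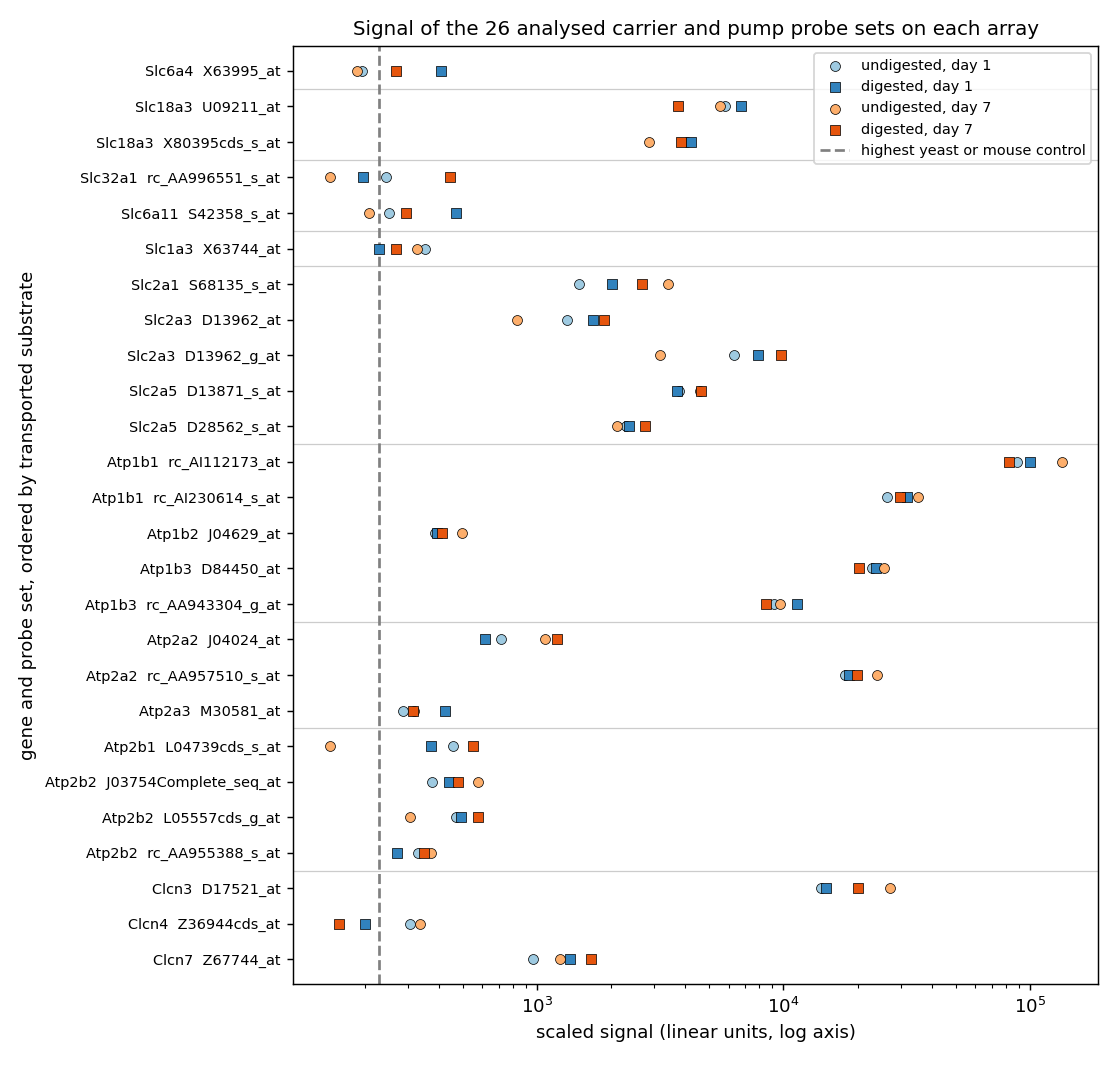
Scaled signal (x axis, log scale) of the 26 analysed carrier and pump probe sets (rows) on each of the 4 arrays (points, 1 array per group). The dashed line is the highest signal of a yeast or mouse control, 228; 5 of the 26 rows have a point to the left of it.

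With 1 array per group, differences are given as sizes without a test, and at least 2-fold is used as the limit for counting. At day 1, 1 of the 26 analysed members differed that much between digested and undigested samples (3.85%), against 3.48% of the 632 analysed probe sets. It was higher in the digested sample, as were 2.06% of all, while 1.42% were lower. At day 7, 5 of the 26 did (19.2%), against 11.4% of all. Of these, 4 were higher and 1 lower in the digested sample, against 6.96% and 4.43% of all, and the values as deposited gave 5 and 0. Between day 1 and day 7 the undigested samples differed at least 2-fold in 2 members (7.69%), against 13.3% of all. Of these, 1 was higher and 1 lower at day 7, against 7.28% and 6.01% of all, and the values as deposited gave 0 and 2. The digested samples differed in 1 member (3.85%), higher at day 7, against 8.07% of all, 3.32% higher and 4.75% lower. With the dim probe sets included, the counts were 14, 17, 17 and 12 of 63 members, against 16.5%, 21.6%, 22.5% and 19.2% of the 1263, and 25 of the 37 dim members held a value at the floor. Of the 4 shares among analysed members, 1 lay above that of all, 2 below and 1 close to it. The probe sets of Slc6a4, Slc32a1 and Clcn4 reached the filter only through the array on which each was highest, so their differences had a part in their selection. With the filter applied to the 3 lowest arrays of each probe set, the counts were 0, 3, 2 and 0 of 23 members, against 2.49%, 9.47%, 11.6% and 6.81% of all. The 3 at day 7 were Atp2b1 and both probe sets of Slc2a3. In all, 7 members of 6 genes passed 2-fold somewhere, and 19 passed nowhere. The members' median log2 differences in these comparisons were 0.07, -0.06, 0.15 and 0.14, and those of all analysed probe sets 0.12, -0.05, 0.17 and 0.04. Digestion at day 7 and the day difference in undigested samples share the undigested day 7 array, so a low or high signal there enters both. Under other scalings of the arrays, the sign of the difference flipped for 7, 4, 6 and 3 of the 26 members in the same order of comparisons, all of them short of 2-fold.

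**Figure D2:**
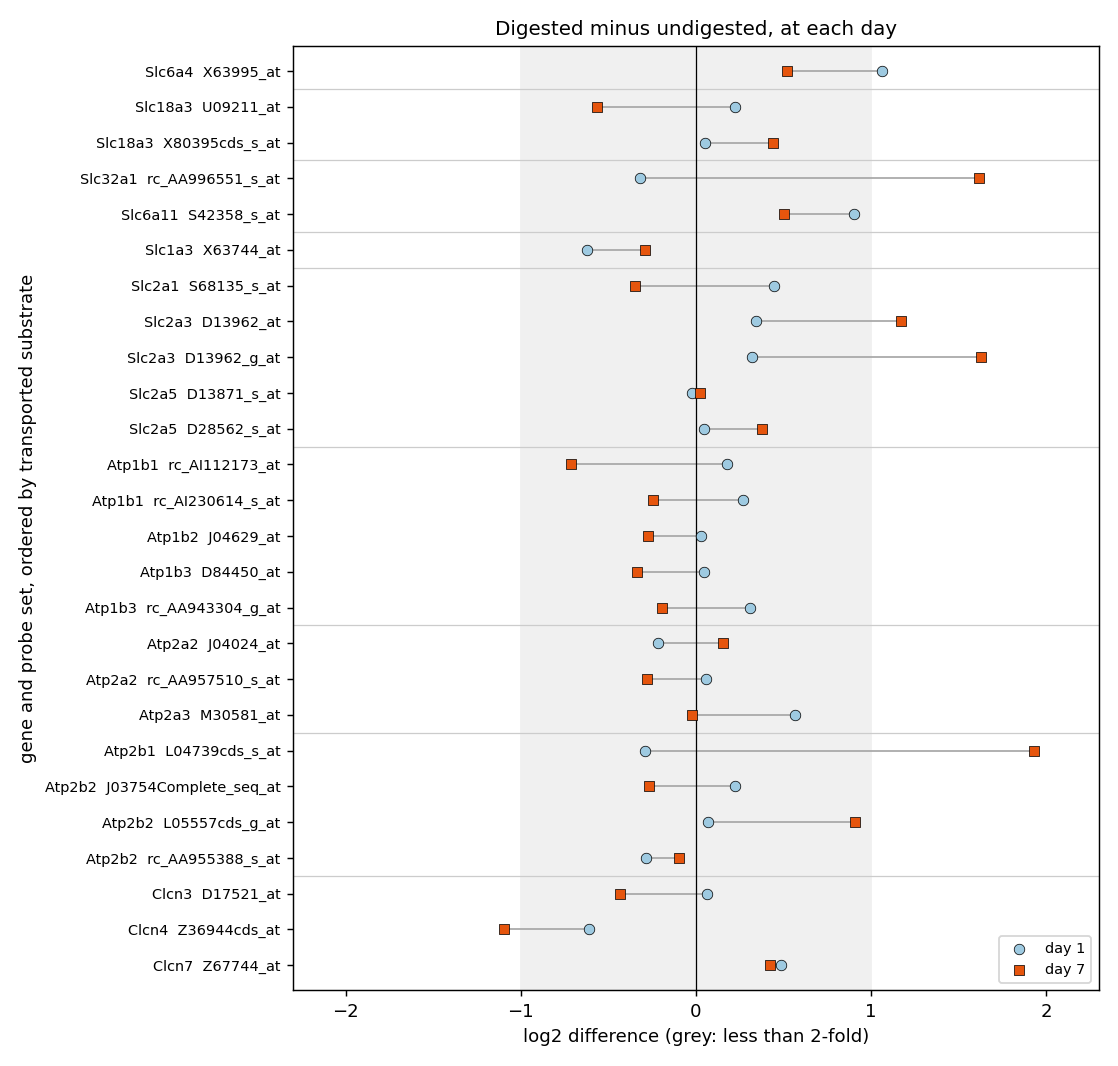
Log2 difference of digested minus undigested (x axis) at day 1 (circles) and day 7 (squares) for the 26 analysed members (rows); the grey band holds differences short of 2-fold. At day 1 only Slc6a4 (1.06) lies outside the band. At day 7 Atp2b1 (1.93), both probe sets of Slc2a3 (1.63 and 1.17), Slc32a1 (1.62) and Clcn4 (-1.10) do.

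Among the glucose carriers, Slc2a3 passed 2-fold for digestion at day 7 and Slc2a1 for the day in undigested samples. On the undigested day 7 array Slc2a3 had its lowest signal and Slc2a1 its highest. Slc2a3 codes for GLUT3, the high-affinity glucose carrier typical of neurons, and Slc2a1 for GLUT1, which is found in most cells and in brain capillaries. Slc2a3 had signals of 6314, 7899.7, 3158 and 9784 by probe set D13962_g_at. It was lowest on the undigested day 7 array and highest on the digested day 7 array, a 3.10-fold difference (log2 1.63). Probe set D13962_at gave 1329, 1686, 828 and 1867 in the same order, and a digestion difference of 2.25-fold at day 7 (log2 1.17). These probe sets were designed on the same sequence, so they are no independent measurements of the gene. At day 1 the digestion difference of Slc2a3 was 0.32 and 0.34 on the log2 scale. Between the days, the undigested samples differed by -0.999 and -0.68, the former just short of 2-fold and past it under each of the other 3 scalings, and the digested samples by 0.31 and 0.15.

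The signals of Slc2a1 were 1486, 2027, 3401 and 2673, highest in the undigested day 7 sample and lowest in the undigested day 1 sample. The day difference in the undigested samples was 2.29-fold higher at day 7 (log2 1.195), and it was 0.96, short of 2-fold, in the values as deposited. In the digested samples the day difference was 0.40, and the digestion differences were 0.45 at day 1 and -0.35 at day 7. Slc2a5, the gene of the fructose carrier GLUT5, had signals of 3765, 3708, 4579 and 4650.2 by its brighter probe set and 2297, 2376, 2107 and 2734 by the other. Its brighter probe set had the smallest largest difference of the 18 analysed genes, 1.25-fold. Slc2a4, which codes for the insulin-responsive carrier GLUT4, was too dim to analyse, at 227, 39.0, 308 and 117.

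Among the transmitter carriers, the one read well above the controls was Slc18a3. It codes for the vesicular acetylcholine transporter, which loads acetylcholine into synaptic vesicles. Its signals were 5796, 6757, 5509 and 3727 by probe set U09211_at and 4053, 4212, 2838 and 3849 by probe set X80395cds_s_at. No comparison reached 2-fold. The probe sets gave opposite signs for digestion at day 7 (log2 -0.56 and 0.44), while both were lower at day 7 than at day 1 in the undigested (-0.07 and -0.51) and the digested samples (-0.86 and -0.13).

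The GABA carriers were read near the level of the controls. Slc32a1 codes for the vesicular carrier of GABA and glycine, the marker of inhibitory neurons, and had signals of 245, 197, 145 and 445. The digested day 7 sample was highest, 3.07-fold above the undigested day 7 sample (log2 1.62) and 2.26-fold above the digested day 1 sample (log2 1.17). The mean (geometric) was 236 with that array, above the filter of 229, and 191 without it. Only that signal and the 245 at undigested day 1 were above the highest control. A different probe set of Slc32a1 lay between 47.8 and 62.2 on the 4 arrays with 48.2 in the digested day 7 sample, so that the difference was not seen there. Slc6a11, which codes for GAT-3, a GABA carrier mainly of astrocytes, had signals of 252, 471, 209 and 296. Digested signals exceeded undigested ones 1.87-fold at day 1 and 1.42-fold at day 7. Slc6a13, the gene of GAT-2, was not analysed. Its signals of 138, 44.2, 325 and 95.1 were higher in the undigested sample of each day.

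Of the 6 probe sets of monoamine carriers, 1, of Slc6a4, was analysed, and none was above the highest control on all 4 arrays. Slc6a4 codes for the serotonin transporter, which takes serotonin back into neurons. Its analysed probe set had signals of 195, 407, 187 and 269, higher in the digested sample at both days, by 2.09-fold at day 1 (log2 1.06) and 1.44-fold at day 7 (log2 0.52). Both undigested signals were under the highest control, and without the digested day 1 array the mean was 214, under the filter. In the values as deposited, the day 1 difference was 0.93, short of 2-fold. The other probe set of Slc6a4 read 55.9, 197, 134 and 104, with log2 differences of 1.82 at day 1 and -0.37 at day 7. The probe sets therefore shared the direction at day 1 and not at day 7. Slc18a2, which codes for the vesicular monoamine transporter VMAT2, stayed under the highest control on every array by both probe sets, which read 31.3, 82.1, 113 and 161, and 33.7, 136, 37.7 and 196. In each of these 4 pairs of digested and undigested samples the digested one was higher, at signals within the range of the controls. Slc6a3, the dopamine transporter gene, read 82.4, 359, 202 and 91.6 by the brighter of its probe sets and 82.4, 34.6, 50.7 and 112 by the other, which gave opposite signs in every comparison. No named probe set was found for Slc6a2 or Slc18a1, the noradrenaline transporter and VMAT1, so neither is described.

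The plasma membrane glutamate carriers clear glutamate from the extracellular space, Slc1a2 (GLT-1) and Slc1a3 (GLAST) mainly into astrocytes and Slc1a1 (EAAC1) into neurons. Of their 12 probe sets, 1 was analysed and 9 lay at or under the highest control on all arrays. The analysed probe set, of Slc1a3, had signals of 352, 229, 326 and 267, lower in the digested sample at day 1 (log2 -0.62) and at day 7 (log2 -0.29). The remaining probe sets of Slc1a3 ran from 8.45 to 168. All 3 probe sets of Slc1a2 were dim, the brightest at 124, 118, 182 and 126, and so was Slc1a6, the carrier of cerebellar Purkinje cells, which did not exceed 143. The 2 probe sets of S100b, a marker of astrocytes and Schwann cells, were also under 228 on every array. Glul, the gene of glutamine synthetase, which turns the glutamate taken up by astrocytes into glutamine, was read clearly by 3 of its 4 probe sets. The brightest of these read 6550.5, 6904, 2499 and 3356, lower in both day 7 samples.

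The sodium-potassium pump was read mainly through its beta subunits, which carry the catalytic alpha subunit to the membrane. Atp1b1 had signals of 88651, 100256, 134795 and 82307 by its brighter probe set and 26422, 31847, 35264 and 29824 by the other. On the undigested day 7 array each had its highest signal, with day differences in the undigested samples of 0.60 and 0.42. With digestion at day 7 they gave -0.71 and -0.24, of which the latter turned positive under another scaling. Atp1b3, another beta subunit, read 22886, 23677, 25515 and 20237 and, by its dimmer probe set, 9174, 11378, 9682 and 8463. Atp1b2, the beta subunit also known as an adhesion molecule on glia, read 386, 394, 496 and 411. Atp1b3 and Atp1b2 kept all 4 differences of their brightest probe sets within 1.26-fold and 1.28-fold. A second probe set of Atp1b2, too dim to analyse, read 53.7, 68.3, 115 and 110. Its day differences were 1.09 in undigested and 0.69 in digested samples. All 5 analysed beta subunit probe sets, of 3 genes, had a positive digestion difference at day 1 and a negative difference at day 7. Their medians were 0.18 and -0.27, against 0.12 and -0.05 over all analysed probe sets. Of these signs, those of D84450_at (Atp1b3) and J04629_at (Atp1b2) at day 1 and of rc_AI230614_s_at (Atp1b1) at day 7 flipped under other scalings. Among the 26 analysed members, 19 were positive at day 1 and 14 negative at day 7. The share of all analysed probe sets with these signs was not counted. The only alpha subunit among the members was Atp1a4, the form of sperm cells, which was at or under 25.2 on every array. Atp12a, the gene of a proton-potassium pump, had signals of 14.8 to 96.1.

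Calcium pumps of the endoplasmic reticulum refill internal stores. Atp2a2, which codes for the widely expressed pump SERCA2, had signals of 17712, 18432, 24059.5 and 19827 by the brighter probe set. The dimmer one read 719, 618, 1083 and 1205, higher in both day 7 samples than in both day 1 samples. Its day differences were 0.59 in the undigested and 0.96 in the digested samples, against 0.44 and 0.11 by the brighter probe set. The brighter probe set's day differences turned slightly negative under another scaling, at -0.02 and -0.03. Atp2a3 (SERCA3) read 287, 425, 319 and 315, highest in the digested day 1 sample by 1.48-fold over the undigested. Atp2a1, the pump of skeletal muscle, did not exceed 118.

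The calcium pumps of the plasma membrane gave the largest difference among analysed members, and it was not shared by all probe sets of the gene. Atp2b1 codes for PMCA1, the pump that expels calcium from most cells. Its analysed probe set, L04739cds_s_at, had signals of 455, 373, 144 and 551. The undigested day 7 sample was low, 3.81-fold below the digested day 7 sample (log2 1.93) and 3.15-fold below the undigested day 1 sample (log2 -1.66). The dim probe sets of Atp2b1 ran opposite, with rc_AI172499_at at 134, 267, 379 and 38.1 and rc_AI103671_at at 21.0, 24.7, 292 and 32.8. Both were highest in the undigested day 7 sample, with digestion differences at day 7 of -2.87 and -2.50. The probe sets of Atp2b1 thus spanned 4.80 log2 units in this comparison, and the direction for the gene is not settled by these arrays.

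Atp2b2 codes for PMCA2, a fast calcium pump of neurons and hair cells, and 3 of its 4 probe sets were analysed. The probe set J03754Complete_seq_at read 375, 439, 578 and 479.5, L05557cds_g_at 472, 495, 306 and 575, and rc_AA955388_s_at 330.2, 271, 374 and 349. Digestion at day 7 gave log2 differences of -0.27, 0.91 and -0.10 by these probe sets, and the day in undigested samples 0.62, -0.62 and 0.18. All the differences of Atp2b2 were short of 2-fold and their signs were mixed, but in the values as deposited L05557cds_g_at passed 2-fold for digestion at day 7, at 2.08-fold. The sodium-calcium exchangers Slc8a1, Slc8a2 and Slc24a2, which use the sodium gradient to export calcium, had 6 probe sets and none analysed. Of these 6, 4 were under the highest control on every array. Slc8a1 reached 252 in the digested day 7 sample and Slc24a2 294 in the undigested day 7 sample by their brightest probe sets.

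**Figure D3:**
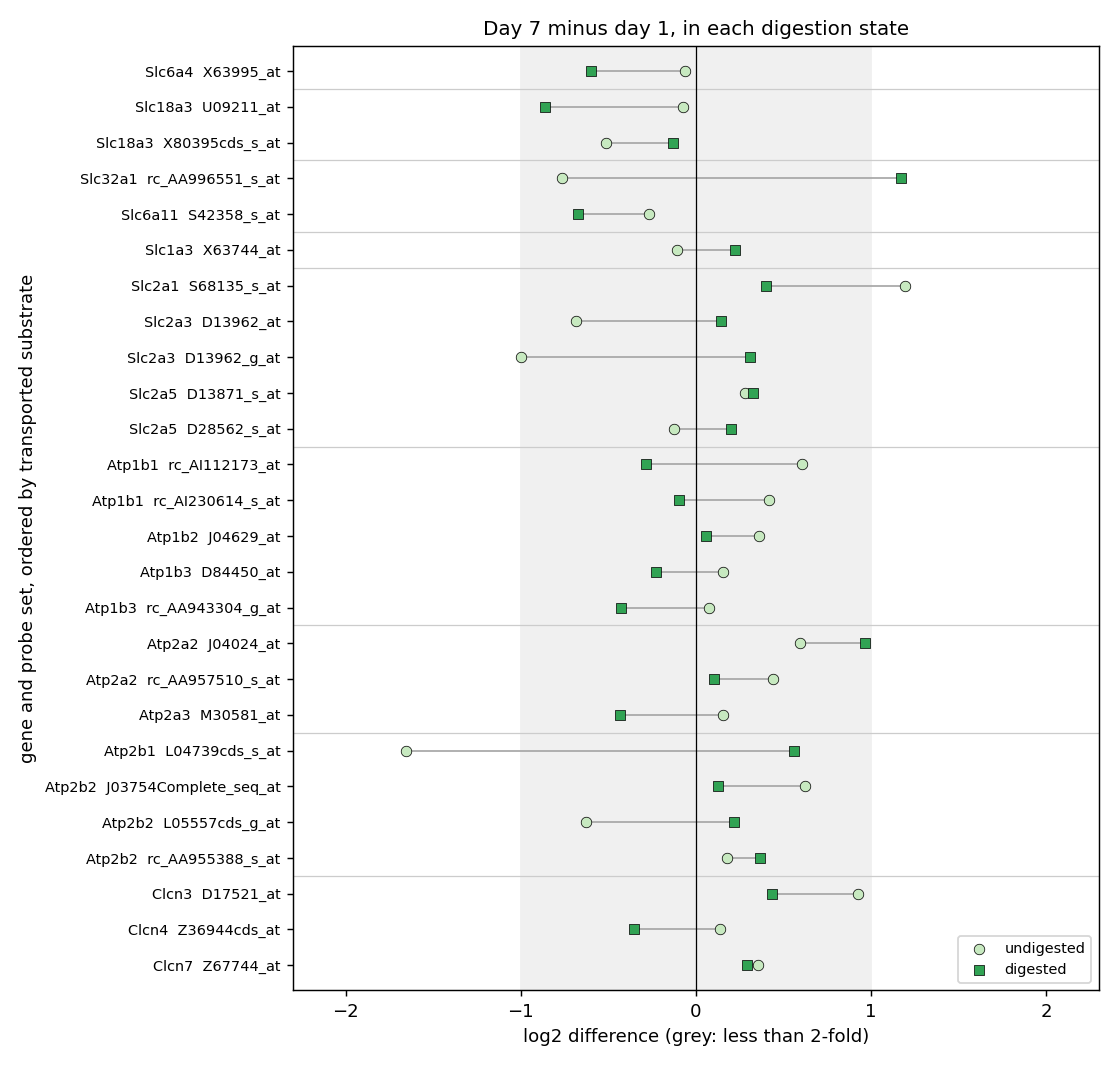
Log2 difference of day 7 minus day 1 (x axis) in undigested (circles) and digested samples (squares) for the 26 analysed members (rows); the grey band holds differences short of 2-fold. Outside it lie Atp2b1 (-1.66) and Slc2a1 (1.195) in undigested samples and Slc32a1 (1.17) in digested samples; Slc2a3 by D13962_g_at sits at its edge (-0.999).

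The chloride exchangers of the CLC family were read by 5 probe sets, of which 3 were analysed. Clcn3, which codes for an exchanger of endosomes and synaptic vesicles, had signals of 14235, 14868, 27065 and 20076. Both day 7 samples were above both day 1 samples, 1.90-fold in undigested (log2 0.93) and 1.35-fold in digested samples (log2 0.43). Clcn7, the exchanger of lysosomes, read 969, 1358, 1239 and 1665, higher in the digested sample at both days (log2 0.49 and 0.43). Clcn4, an exchanger of endosomes, read 306, 201, 336 and 157, lower in the digested sample at both days. Its digestion difference was 1.52-fold at day 1 (log2 -0.61) and 2.14-fold at day 7 (log2 -1.10), the latter -0.95 in the values as deposited. The digested signals of Clcn4 were under the highest control, and without its highest array, undigested day 7, the mean was 213, under the filter. Clcn5, the exchanger of kidney endosomes, had a pair of dim probe sets that read 205, 251, 52.5 and 158, and 84.5, 117, 252 and 371, with day differences in undigested samples of -1.97 and 1.58.

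The remaining members were carriers of amino acids and organic ions, and none was analysed. Slc7a2, a carrier of cationic amino acids such as arginine, read 166, 121, 139 and 62.9. Slc6a15, a carrier of branched-chain amino acids and proline in neurons, did not exceed 104, and Slco1a4, an organic anion carrier of brain capillaries, did not exceed 201. All 3 stayed under the highest control.

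The promoters of the genes that passed 2-fold are shown to let the sequence around the start be read beside the signals. RefSeq sequences of build GRCr8, from 250 bases before to 50 bases after the start, were found for 27 of the 35 member genes. For Slc2a3 and Slc6a4 there was no entry. Capitals mark matches on either strand to the TATA box (TATAAA), the core of the GC box (GGGCGG), a core of the cyclic AMP response element (TGACG) and an E-box (CACGTG). No match in these promoters overlapped another.
Slc2a1 (chr5:138002272-138002571, plus strand): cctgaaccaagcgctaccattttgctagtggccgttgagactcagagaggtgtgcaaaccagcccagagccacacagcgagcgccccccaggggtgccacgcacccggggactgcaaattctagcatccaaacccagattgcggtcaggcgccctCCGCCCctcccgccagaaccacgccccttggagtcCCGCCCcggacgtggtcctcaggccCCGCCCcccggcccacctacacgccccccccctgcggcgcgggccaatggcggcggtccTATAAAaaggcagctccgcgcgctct
Atp2b1 (chr7:35622211-35622510, plus strand): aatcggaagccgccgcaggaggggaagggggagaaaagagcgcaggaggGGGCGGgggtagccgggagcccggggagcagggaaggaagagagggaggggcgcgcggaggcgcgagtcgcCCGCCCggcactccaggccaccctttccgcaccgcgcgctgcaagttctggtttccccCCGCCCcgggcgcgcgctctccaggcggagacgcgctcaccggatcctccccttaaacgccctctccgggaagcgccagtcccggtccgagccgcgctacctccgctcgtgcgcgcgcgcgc
Slc32a1 (chr3:167686995-167687294, plus strand): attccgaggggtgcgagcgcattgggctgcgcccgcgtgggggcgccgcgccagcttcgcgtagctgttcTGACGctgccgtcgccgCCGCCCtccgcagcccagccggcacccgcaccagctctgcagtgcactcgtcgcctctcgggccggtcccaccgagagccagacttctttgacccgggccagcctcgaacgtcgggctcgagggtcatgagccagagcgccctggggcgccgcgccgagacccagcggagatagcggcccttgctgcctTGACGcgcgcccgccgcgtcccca
Clcn4 (chrX:27290689-27290988, plus strand): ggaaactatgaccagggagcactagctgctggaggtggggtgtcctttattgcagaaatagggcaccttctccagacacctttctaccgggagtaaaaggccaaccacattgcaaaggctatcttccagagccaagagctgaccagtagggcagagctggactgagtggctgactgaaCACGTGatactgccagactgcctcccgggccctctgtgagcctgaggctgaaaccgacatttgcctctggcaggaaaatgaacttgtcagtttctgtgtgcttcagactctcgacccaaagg
Slc2a1 held 3 matches to GGGCGG and 1 to TATAAA, Atp2b1 3 to GGGCGG, Slc32a1 1 to GGGCGG and 2 to TGACG, and Clcn4 1 to CACGTG. The TATAAA of Slc2a1 and the later TGACG of Slc32a1 lay in the 50 bases after the start, so they are not upstream matches. Of all 33469 promoters, 14.2% held TATAAA, 33.1% GGGCGG, 21.2% TGACG and 6.42% CACGTG. The GC content was 68.3%, 74.3%, 73.7% and 53.7% in the order shown, against a median of 51.7% over all promoters. A match describes letters in the window and was not set against the signals.

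Probe sets of the same gene could be compared for part of the members. Of the 35 genes, 20 had several probe sets, and 7 had several that were analysed. Over those 7 genes (15 probe sets), probe sets of the same gene differed with a pooled SD (log2) of 0.17 and 0.46 in the digestion comparisons of day 1 and day 7, and of 0.36 and 0.30 in the day comparisons of undigested and digested samples. The same SD over the 125 genes with several analysed probe sets was 0.32, 0.52, 0.52 and 0.41. In 5 genes, Atp2b1, Clcn5, Slc1a1, Slc1a3 and Slc6a3, probe sets of the gene passed 2-fold in opposite directions within the same comparison, and each such pair included a probe set too dim to analyse. Slc1a1 gave log2 differences for digestion at day 1 from -1.31 to 1.85 over its 3 probe sets. Of the 63 members, 25 end in _s_at, a name given to probe sets that can match several transcripts, and 10 of these were analysed.

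**Figure D4:**
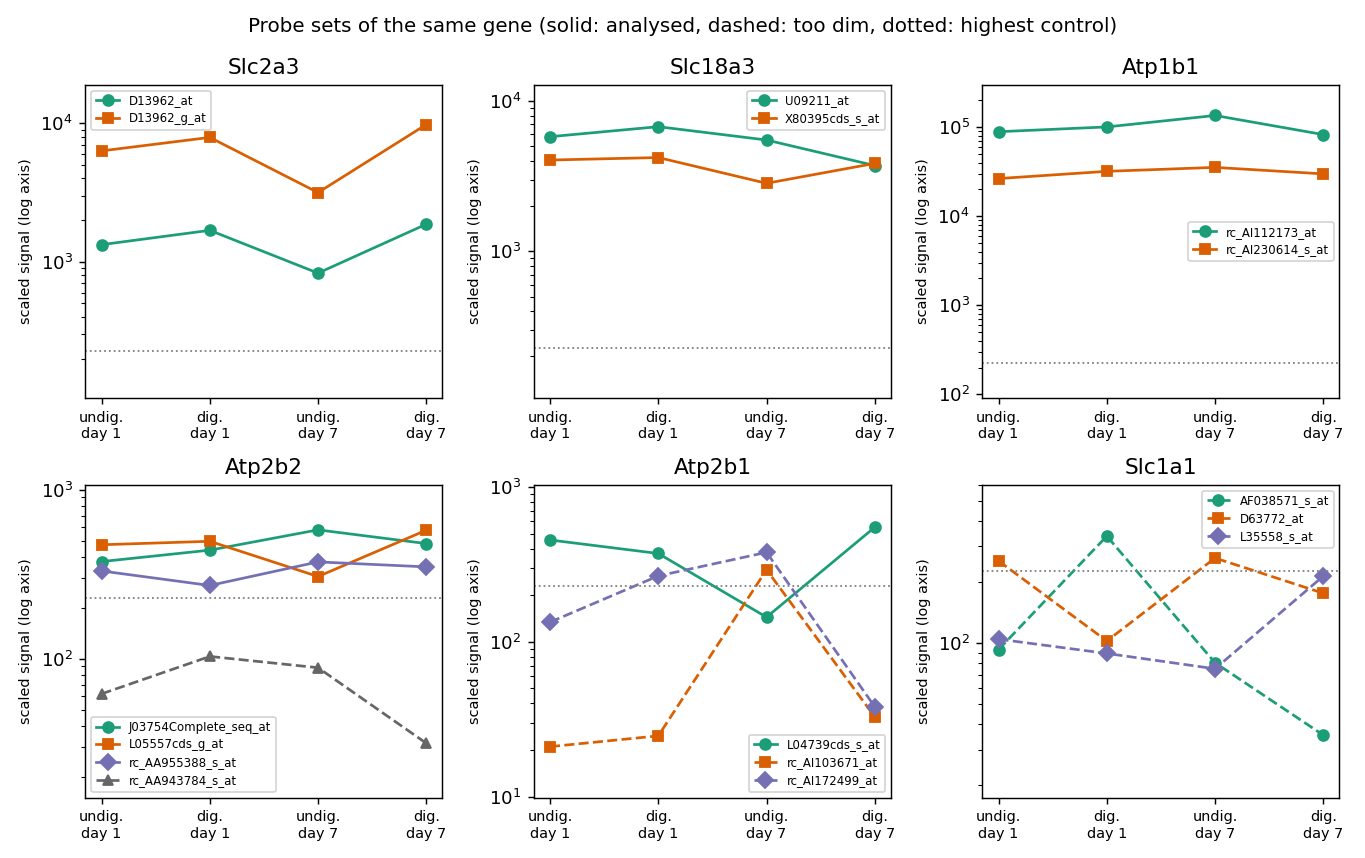
Scaled signal (y axis, log scale) on the 4 arrays (x axis) of each probe set of 6 genes; solid lines are analysed probe sets, dashed lines those too dim to analyse, and the dotted line is the highest yeast or mouse control, 228. The lines of Slc2a3 and Atp1b1 rise and fall at the same steps, by unlike amounts. In Atp2b1 the solid line dips to 144 where both dashed lines peak, at 292 and 379, and the 3 dashed lines of Slc1a1 cross.

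A list of 37 other genes that make, break down or buffer what the members carry was counted beside them. Of these, 17 had a named probe set and 11 were analysed, by 20 probe sets. With digestion at day 1, 0 of the 20 passed 2-fold, and at day 7 1 of Glul was higher and 1 of Ddc lower, against 11.4% of all analysed probe sets. Between the days in undigested samples, 2 were higher and 5 lower at day 7, against 7.28% and 6.01% of all. The higher ones were of Dbh, which makes noradrenaline, and Ddc, which makes dopamine and serotonin. The lower ones were 2 of Ckb, the brain creatine kinase, 2 of Glul and 1 of Tph1, an enzyme of serotonin synthesis. In digested samples 0 were higher and 3 lower, 2 of Glul and 1 of Tph1, against 3.32% and 4.75% of all. The calmodulin gene Calm3, whose product activates the plasma membrane calcium pumps, read 5593, 5852, 3872 and 7732, with its lowest signal on the undigested day 7 array, as Slc2a3 had. Calm2, which codes for the same protein, was highest there, at 32483, 42111, 52357 and 35395.

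An additive limma fit of digestion and day over the 4 arrays, on all 632 analysed probe sets, stood beside these sizes. It leaves 1 residual degree of freedom, into which both the interaction of digestion with day and any spread between samples fall. limma also draws the variance of each probe set toward that of all 632. The SEs below therefore do not measure the spread of the named gene between samples. No member had an adjusted p under 0.05 for digestion or for day. Unadjusted, 3 members were under 0.05 for digestion and 2 for day, against 42 and 91 of all 632. For digestion these were Clcn4 (log2 -0.85 ± 0.32 SE), Slc2a3 by D13962_g_at (0.98 ± 0.38) and Slc6a4 (0.79 ± 0.32). Clcn4 and Slc6a4 reached the filter only through the array on which each was highest. Their differences thus had a part in their selection, and their place in this count is no support for them. For day they were Atp2a2 by its dimmer probe set (0.78 ± 0.31, limma adjusted p = 0.331) and Slc2a1 (0.80 ± 0.33, limma adjusted p = 0.342).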

How the data were processed

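The authors deposited a linear signal intensity for every probe set. The algorithm and scaling behind it are not stated in the labels or file. The means after trimming 2% at each end were 2515 to 2516 on all 4 arrays. Genes came from the platform's probe table, and all 63 members were found in a RefSeq table by gene identifier, with 0 symbols changed.

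Arrays were brought to the same median signal, taken without controls (factors 0.925, 1.01, 1.09 and 0.984), floored at the 20th percentile (51.8) and log2-transformed. The brighter part, with means from the median upward, was analysed. The alternatives were values as deposited, quantile normalisation, cyclic loess, a floor at the 40th percentile, no filter, 1.5-fold and 3-fold limits, 1 value per gene, limma's additive fit and, added after the data were seen, the filter on the 3 lowest arrays. The steps used Python 3.11.15, R 4.3.3 and limma 3.58.1. The median scaling, the differences and the limma fit were tested on data simulated with a day effect and no digestion effect. The floor, the filter and the other normalisations were not tested on simulated data.

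The rule for named genes took each analysed member past 2-fold in any comparison, the gene with the brightest probe set in each substrate class, the 3 genes with the smallest largest difference and the monoamine carriers; the remaining members are given beside them. Members and lists were chosen with earlier results of these data known. The use of the highest yeast or mouse control as a limit was chosen after the values were seen. With 1 array per group, the spread between samples is unknown.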

Additional observations from a re-analysis of the deposited data

Results flagged for a closer look

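Of the analysed members past 2-fold in a comparison, 2 had the opposite sign in the matching comparison. The digestion difference of Atp2b1 was -0.29 at day 1 and 1.93 at day 7, a change of 2.22 on the log2 scale, and its day difference was -1.66 in undigested and 0.56 in digested samples, which is the same change of 2.22. For Slc32a1 the digestion differences were -0.32 and 1.62, a change of 1.94, and the day differences -0.76 and 1.17. The dim probe sets of Atp2b1 gave changes of -3.86 and -2.50, opposite to the analysed one, and the dim probe set of Slc32a1 gave 0.26. The analysed probe set of Slc32a1 reached the filter only through the digested day 7 array, which enters its change. The share of all analysed probe sets with opposite signs was not counted. With 1 array per group these changes were not tested.

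Of the 37 members too dim to analyse, 11 had a signal above the highest yeast or mouse control of 228 on at least 1 array. The share of all dim probe sets that did so was not counted, so this count tells nothing particular to the members. On the undigested day 7 array the highest such signals were 379 and 292 by the dim probe sets of Atp2b1, 325 for Slc6a13, 308 for Slc2a4, 294 for Slc24a2 and 263 for Slc1a1 by D63772_at. On the digested day 1 array they were 359 for Slc6a3, 337 for Slc1a1 by AF038571_s_at and 251 for Clcn5 by D50497_s_at. On the digested day 7 array they were 371 for Clcn5 by Z56277_i_at and 252 for Slc8a1. None of these 11 probe sets was above that control on all 4 arrays.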

How the results depend on the processing

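Each group holds 1 array, so there were no replicate numbers to pair on. The pairing that the design allows is by day and by digestion state. The additive fit given in the report uses it, setting digested against undigested within each day, with 1 residual degree of freedom. Leaving out an array removes 2 of the 4 comparisons. The counts of members past 2-fold were 1 and 5 for digestion at day 1 and day 7 and 2 and 1 for the day in undigested and digested samples. In the values as deposited they were 0 for digestion at day 1, where Slc6a4 fell short of the limit, and 2 for the day in digested samples, with Atp2a2 added. Without the filter on dim probe sets they were 14, 17, 17 and 12 of 63, against 16.5%, 21.6%, 22.5% and 19.2% of all 1263 probe sets. The 1.5-fold limit gave 4, 7, 10 and 5 of 26, against 11.6%, 27.8%, 37.2% and 23.7% of all, and the 3-fold limit 0, 3, 1 and 0, against 1.27%, 3.96%, 3.16% and 2.85%. With the filter on the 3 lowest arrays, added after the data were seen, they were 0, 3, 2 and 0 of 23. Quantile normalisation, cyclic loess, the floor at the 40th percentile and 1 value per gene kept each count within 1.5 times, and so did the values as deposited for digestion at day 7 (5) and the day in undigested samples (2). In that last comparison 1 was higher and 1 lower as reported, and 0 and 2 in the values as deposited. For digestion at day 7 the split was 4 higher and 1 lower as reported and 5 and 0 in the values as deposited, with Atp2b2 gained and Clcn4 lost. Scaling also moved the median of all analysed probe sets, by -0.13, 0.14, -0.23 and 0.04 in the values as deposited. Of 412 differences of analysed members under these scalings and the higher floor, 412 moved by less than the pooled SD between probe sets over the 125 genes. By the smaller SD over the 7 member genes, 9 moved by at least that much. Of the differences past 2-fold, 0 changed sign. The levels of substrate classes stayed the same in 72 of 72 cases. For the values as deposited, the shifts above were smaller than the SDs over the 125 genes, 0.32 to 0.52. The outcome there was therefore fixed in advance, and shifts of that size could not turn the sign of a difference past 2-fold. These counts are thus no test of robustness. The signals near the controls limit what can be said of the monoamine, GABA and glutamate carriers.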
